A study of Rattus norvegicus with 4 samples.

Results

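Peaks of the linker histone variant H1T2 that lie close together on the rat autosomes were examined. Peaks of chromosomes 1 to 20 were sorted by position and joined into a chain wherever the next peak began at most 100000 bp after the end of the previous one, and all peaks in chains of 6 or more were kept. This gave 1388 peaks in 130 chains, out of 10563 autosomal peaks and 11570 peaks in the whole list. The other 9175 autosomal peaks, single or in chains of at most 5, served as the comparison.

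The study mapped H1T2 by ChIP-sequencing in nuclei of testicular cells from rats aged 35 to 50 days, labelled as round and elongating spermatids, whereas the series text names elongating and condensing ones. No strain or treatment is given in the labels. There were 2 samples precipitated with antibodies to H1T2 (IP) and 2 samples of input chromatin, sequenced as reads of 150 nt. By its header the list was called on the merged IP against the merged input, although a legend of the study describes peaks shared by the replicates. Each peak has 1 value of each kind and no spread between replicates, and the labelled cell type could not be checked from a peak list.

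Linker histones bind the DNA that enters and leaves the nucleosome and help to compact chromatin. H1T2 is made in the testis after meiosis and is needed for the normal condensation of the spermatid nucleus, before histones are replaced by transition proteins and protamines. Genes and repeats that occur as neighbouring copies, such as ribosomal RNA genes, satellite DNA and the receptor families of smell, form clusters along chromosomes.

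Sequences are shown for 2 genes at which chained peaks were placed by the study's annotation, and for Rn45sl1, to which no peak was assigned in the part of the annotation used here. Hils1 encodes another linker histone of spermatids, and a chained peak lay in its single exon. RT1-A2 encodes a class I molecule of the rat major histocompatibility complex, and a chained peak lay in its exon 3. Rn45sl1 is a gene named after the ribosomal RNA precursor and is shown only as an example of a gene with copies. Each line gives RefSeq's window from 250 bases before to 50 bases after the gene start, 5′ to 3′ on the gene's strand. The GRCr8 positions are chr10:80410111-80410410 (plus strand) for Hils1, chr20:4872621-4872920 (plus strand) for RT1-A2 and chr11:488271-488570 (plus strand) for Rn45sl1. The peaks are given in rn6, so that they were not placed on these windows. Capitals mark, on either strand, the TATA box (TATAAA), the CCAAT box, the GC box (GGGCGG) and the core of the cAMP response element (TGACG), and no marked match overlaps another.
Hils1: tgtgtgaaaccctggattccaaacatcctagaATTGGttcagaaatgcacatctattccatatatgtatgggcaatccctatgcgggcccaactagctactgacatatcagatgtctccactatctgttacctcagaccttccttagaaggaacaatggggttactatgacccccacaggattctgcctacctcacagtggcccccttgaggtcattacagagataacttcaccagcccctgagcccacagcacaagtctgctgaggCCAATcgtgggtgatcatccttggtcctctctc
RT1-A2: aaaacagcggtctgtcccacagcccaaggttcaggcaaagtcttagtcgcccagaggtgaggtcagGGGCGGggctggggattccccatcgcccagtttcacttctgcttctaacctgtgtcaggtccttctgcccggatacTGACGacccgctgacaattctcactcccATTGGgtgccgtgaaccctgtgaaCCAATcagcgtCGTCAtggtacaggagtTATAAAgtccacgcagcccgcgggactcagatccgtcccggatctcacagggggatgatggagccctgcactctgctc
Rn45sl1: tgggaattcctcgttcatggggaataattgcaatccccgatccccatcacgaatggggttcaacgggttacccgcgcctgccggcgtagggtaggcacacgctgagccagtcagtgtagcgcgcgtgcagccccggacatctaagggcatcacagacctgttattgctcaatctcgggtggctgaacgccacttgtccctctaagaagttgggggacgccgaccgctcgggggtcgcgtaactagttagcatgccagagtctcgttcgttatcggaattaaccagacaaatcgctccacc
The Hils1 window held 2 matches to CCAAT and none to the other motifs. The RT1-A2 window held 1 TATA box, 2 CCAAT boxes, 1 GC box and 2 cAMP response cores, whereas that of RT1-CE2, another class I gene with a chained peak, held none of the 4 motifs. Over the 33469 promoter windows of the same length, the TATA box was found in 14.2%, the CCAAT box in 37.5%, the GC box in 33.1% and the cAMP response core in 21.2%. The Rn45sl1 window held none of these motifs and was identical over all 300 bases to that of Rn45sl2, another gene of this name. Of the 105 genes named as nearest to a chained peak, 65 had a promoter window.

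Chained peaks made up 13.1% of the autosomal peaks (95% Wilson interval 12.5 to 13.8%) and 16.7% of the bases that these peaks cover. Chains held from 6 to 80 peaks with a median of 7.5, and 39 of the 130 chains had exactly 6. The 10 chains of 20 or more peaks held 379 of the 1388 members. A chain spanned a median of 188 kb, with a range from 8.41 to 939.7 kb, and the peaks themselves covered a median of 1.45% of the span. Neighbouring peaks of a chain were separated by a median of 6593 bp (quartiles 1260 and 34964 bp), a value that the rule itself bounds at 100000 bp. Of the 1258 gaps, 276 (21.9%) were shorter than 1 kb and 682 (54.2%) shorter than 10 kb. In most chains the peaks covered little of the span, while a few chains were dense.

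**Figure D1:**
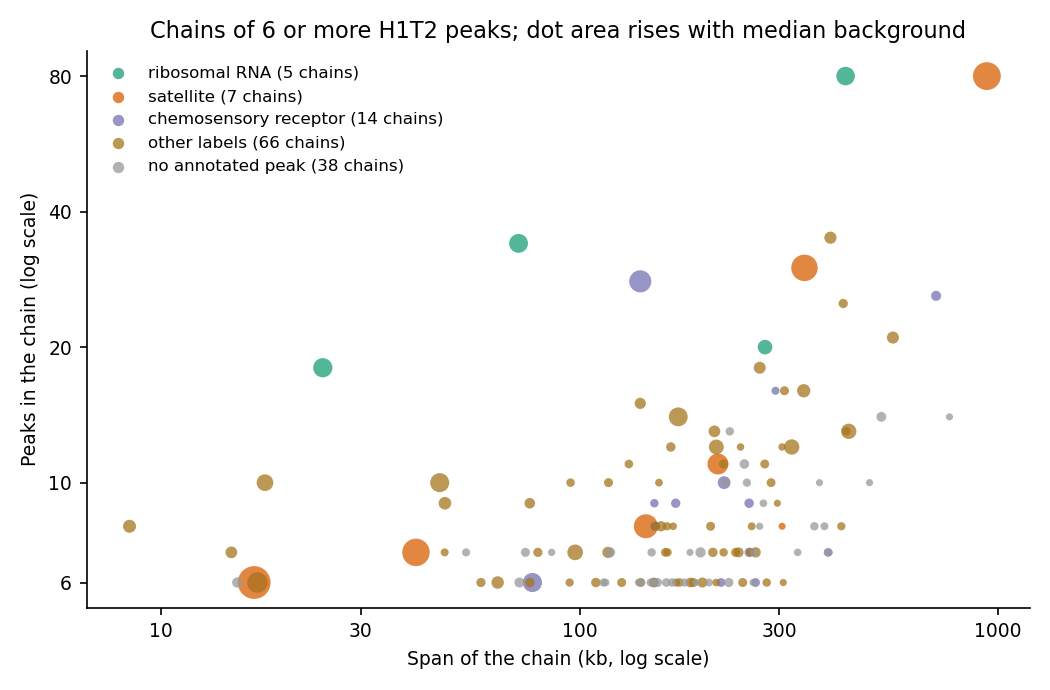
Each dot is 1 of the 130 chains, plotted by its span in kb and its number of peaks, both on log scales, with a larger dot for a higher median local background. The chains with the most peaks (80 each) carried ribosomal RNA or satellite labels, and most other chains held fewer than 20 peaks over 100 to 300 kb.

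The chromosomes differed in how many of their peaks were chained. Chromosome 19 had the largest share, with 133 of 315 peaks (42.2%, 36.9 to 47.7%) in 8 chains. Chromosome 1 followed with 372 of 1398 peaks (26.6%, 24.4 to 29.0%) in 27 chains, and chromosome 20 with 66 of 272 (24.3%, 19.6 to 29.7%) in 6 chains. Chromosome 14 had 87 chained peaks in only 2 chains, of which 1 held 80. The smallest share was on chromosome 11, with 6 of 333 peaks (1.80%, 0.828 to 3.87%), all in 1 chain. The Wilson intervals of chromosomes 1, 19 and 20 lay above those of the other chromosomes except that of chromosome 16 and chromosome 14, which overlapped the interval of chromosome 20. These intervals treat peaks as independent counts, which neighbouring peaks need not be.

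The deposited measures were then set side by side for chained and other autosomal peaks. The pileup is the number of IP tags at the summit, the fold enrichment is the pileup over the local background, and the background was recovered here as their quotient. Chained peaks were higher and broader but less enriched. Their median pileup was 32 tags (95% interval 30 to 32, quartiles 20 and 80), against 20 tags (20 to 20, quartiles 16 and 28) for the others. Their median local background was 6.62 tags (6.20 to 7.44), against 3.31 tags (3.31 to 3.31), so that the background differed by 1.0 on the log2 scale. The pileup differed by 0.68 on this scale, and the median fold enrichment was lower in chained peaks, 4.73 (4.53 to 4.84) against 6.34 (6.26 to 6.45), a log2 ratio of -0.42. The median length was 290 bp (281 to 301) against 263 bp (260 to 266), a log2 ratio of 0.14. The deposited -log10 p-value, which grows with both pileup and fold, had a median of 11.8 (11.5 to 12.3) in chained and 10.2 (10 to 10.3) in other peaks. The spread among chained peaks was wide, with quartiles of 3.30 and 24.3 tags for the background and 3.31 and 6.46 for the fold. The intervals are binomial intervals of the medians and cover the choice of peaks, not animals. They take peaks as independent, so that for clustered peaks they may be too narrow.

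**Figure D2:**
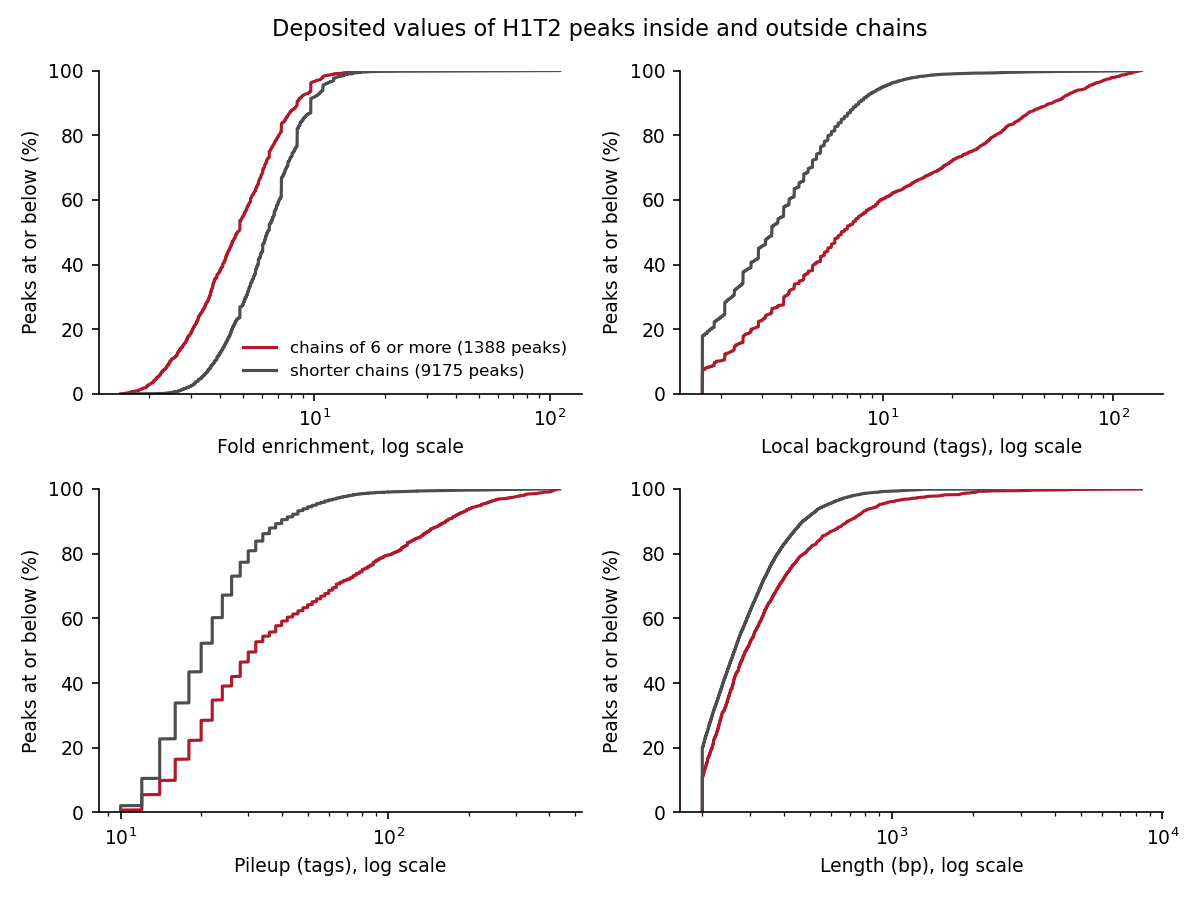
Cumulative percentage of peaks at or below each fold enrichment, local background in tags, pileup in tags and length in bp (log axes), for the 1388 peaks in chains of 6 or more (red) and the 9175 peaks in shorter chains (grey). The chained peaks lie toward lower fold and toward higher background and pileup, with the background curves far apart near 10 tags.

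The direction was also read within each chromosome. The median fold of chained peaks was lower than that of the other peaks of the same chromosome on 19 of 20 chromosomes, and the median background was higher on 19 of 20. The exception in both was chromosome 11, whose 6 chained peaks had a median fold of 7.86 against 6.22. The pileup was higher on 17 chromosomes, lower on 2 and equal on 1, and the length was higher on 15. The separation in fold was widest on chromosomes 13 (3.42 against 6.19), 19 (3.73 against 6.60), 14 (3.77 against 6.45) and 1 (3.99 against 6.45). It was close to nil on chromosome 18, at 6.13 against 6.16.

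**Figure D3:**
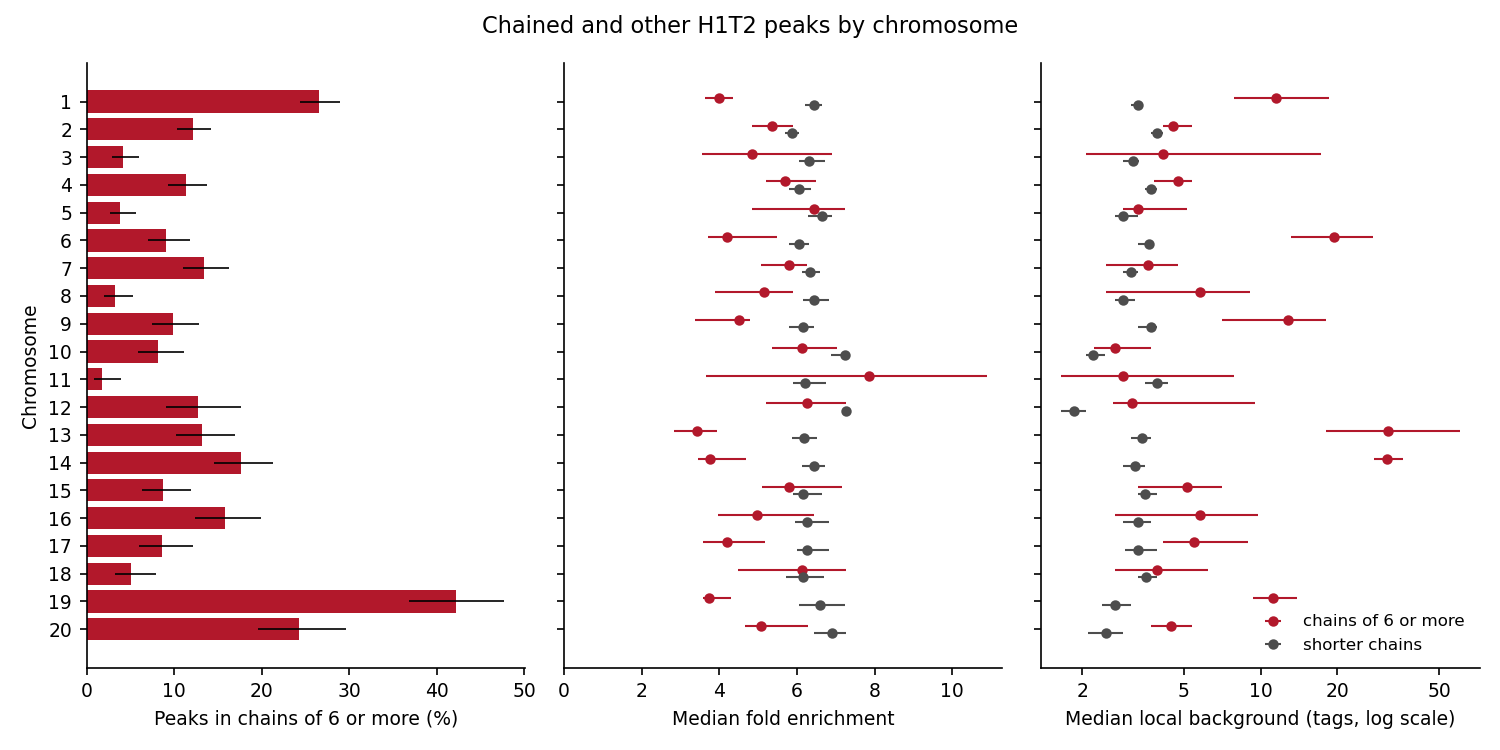
Left, the percentage of the peaks of each chromosome that are in chains of 6 or more, with 95% Wilson intervals. Middle and right, the median fold enrichment and median local background (log axis) of chained (red) and other peaks (grey), with 95% binomial intervals of the median where the number of peaks allows one. Chromosome 19 stands highest on the left at 42.2%, and red lies below grey for fold on all chromosomes but 11.

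Fold and background are tied by construction, so chained and other peaks were compared at like background. Among the 1755 peaks called against the lowest background of the list, 1.65 tags, 101 (5.75%) were chained, and the median fold was 8.47 in both groups. From there to 4 tags the medians were 6.62 (95% interval 6.45 to 6.91) in chained and 6.83 (6.77 to 6.91) in other peaks, and from 4 to 10 tags they were 4.64 (4.43 to 4.84) and 4.84 (4.69 to 4.84). From 10 to 30 tags the medians were 3.5 (3.34 to 3.65) in chained and 4.11 (3.87 to 4.34) in other peaks. These intervals did not overlap, but they take peaks as independent, which neighbouring peaks need not be. Above 30 tags the medians were 2.83 (2.64 to 3.02) and 3.03 (2.74 to 3.84). Within these classes the log2 ratios ran from -0.23 to 0.00, each smaller in size than the -0.42 over all peaks. The background thus moved together with the lower fold of chained peaks, and its part in the result was not tested.

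The share of peaks that were chained rose with the background. It was 8.16% from 1.65 to 4 tags, 11.0% from 4 to 10 tags, 40.2% (36.5 to 44.0%) from 10 to 30 tags and 80.5% (76.1 to 84.3%) above 30 tags. In the highest class 285 of 354 peaks were chained, which is 20.5% of all members, while 0.752% of the other peaks fell into it.

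**Figure D4:**
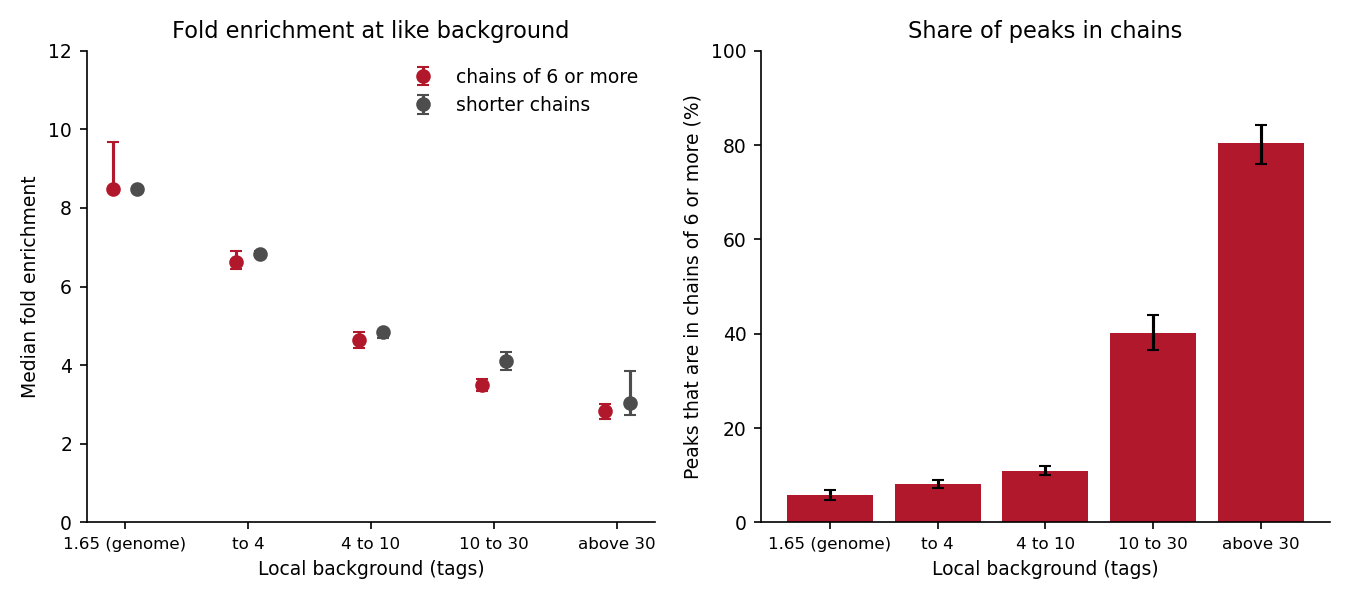
Left, the median fold enrichment of chained (red) and other peaks (grey) in 5 classes of local background in tags, with 95% binomial intervals of the median. Right, the percentage of the peaks of each class that are in chains of 6 or more, with 95% Wilson intervals, which rises from 5.75% to 80.5%.

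Values differed with the number of peaks in a chain, though not in even steps. Single peaks had a median fold of 6.65 and a median background of 2.89 tags, and peaks in chains of 3 had 6.13 and 3.70 tags. Just outside the threshold, the 510 peaks in 102 chains of exactly 5 had a median fold of 5.60 (5.34 to 5.88), a background of 4.14 tags and a pileup of 22 tags. Just inside it, the 234 peaks in 39 chains of exactly 6 had a median fold of 5.47 (5.14 to 5.86), a background of 4.75 tags and a pileup of 24 tags. Chains of 7 to 9 did not continue the order, with a fold of 5.69 (5.37 to 6) and a background of 4.18 tags. Peaks in chains of 10 to 19 had a median fold of 4.72 (4.45 to 4.90) and a background of 6.0 tags. In chains of 20 or more the fold was 3.33 (3.17 to 3.55) and the background 32.1 tags (28.7 to 34.6), with a pileup of 110 tags. Chains at the threshold thus resembled the peaks outside it more than they resembled the largest chains.

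Members with close neighbours also differed from members with distant ones. The 438 members with a neighbour within 1 kb had a median background of 18.0 tags (14 to 22.1), a pileup of 65 tags and a fold of 4.20 (3.87 to 4.46). From 1 to 5 kb the fold was no higher, 4.11 (3.79 to 4.46). The 132 members whose nearest neighbour was 50 to 100 kb away had a background of 3.31 tags (2.77 to 3.97), a pileup of 20 tags and a fold of 6.17 (5.80 to 6.45). The latter values were close to those of peaks outside chains. The first and last peaks of the chains, 260 in all, had a median fold of 5.58 (5.13 to 5.95) over a background of 4.55 tags, and the 1128 inner peaks had 4.51 (4.30 to 4.73) over 7.93 tags. As the authors' peak caller estimates the background over windows of up to 10 kb, close peaks can share part of the same input window.

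The study's own annotation gives a repeat label at the peak centre, a genomic category and a nearest gene. The part of it used here covers the strongest peaks only, namely 393 of the 1388 chained peaks (28.3%) and 1331 of the 9175 others (14.5%), so that the following counts describe strong peaks and were not tested. Satellite DNA was the label of 91 of the 393 chained peaks (23.2%, 19.3 to 27.6%) and of 28 of the 1331 others (2.10%, 1.46 to 3.02%). Of these 91, 65 were SATI_RN and 25 ISAT_RN, satellite families of the rat. Ribosomal RNA was the label of 24 chained peaks and of 2 others. LTR elements were the label of 25 chained peaks (6.36%) and 18 others (1.35%), CpG islands of 27 (6.87%) and 16 (1.20%), and SINEs of 6 and 0. No repeat was recorded for 117 chained peaks (29.8%) and 109 others (8.19%).

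Several other labels were rarer among chained peaks. RatSatRep2, a rat repeat, was the label of 40 of the 393 (10.2%, 7.56 to 13.6%), against 447 of the 1331 others (33.6%, 31.1 to 36.2%). Among the L1 subfamilies of LINE retrotransposons, L1_Rn was the label of 26 chained peaks (6.62%) and 385 others (28.9%), L1_Rat1 of 10 (2.54%) and 110 (8.26%), and RNHAL1 of 3 and 116. L1_Rat2 marked 0 chained peaks (0 to 0.968%) and 7 others (0.255 to 1.08%). Simple repeats marked 13 (3.31%, 1.94 to 5.58%) and 86 (6.46%, 5.26 to 7.91%), and for both labels the intervals overlapped. Other L1 elements (3 and 5) and low-complexity sequence (2 and 1) were few in both groups and not rarer in chains. The 26 chained L1_Rn peaks came from 22 different chains, while the 91 satellite peaks came from 7, with 48 in 1 chain and 21 in another. The intervals of the label shares take peaks as independent and so may be too narrow.

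Chained peaks with different labels differed in their values. The 26 L1_Rn members had a median fold of 7.37 over a background of 5.69 tags, and the 40 RatSatRep2 members 6.80 over 7.13 tags. The corresponding medians outside chains were 8.24 and 7.52. In contrast, the satellite members had a median fold of 3.08 over 83.1 tags, and the 28 satellite peaks outside chains had 3.24 over 62.3 tags. The 117 members without a repeat label had a median fold of 4.24 over 27.7 tags, against 7.66 over 5.79 tags for the 109 others. Among annotated peaks, CpG, LTR and simple repeat members differed most from peaks with the same label elsewhere. Annotated peaks are strong ones, and over a low background a peak is strong only at a high fold. The part of this selection in the medians by label was not tested. The 27 chained CpG peaks had a median fold of 5.61 over 22.1 tags, against 19.4 over 1.65 tags for the 16 others. For LTR elements the medians were 4.07 over 27.0 tags in chains and 11.7 over 2.48 tags outside, and for simple repeats they were 4.19 over 23.6 tags and 12.4 over 2.48 tags. Of these members, 14 of the CpG, 13 of the LTR and 6 of the simple repeat peaks lay in chains with ribosomal RNA labels. The remaining 13, 12 and 7, selected in the same way, had median folds of 6.02, 4.25 and 4.67 over 14.1, 18.4 and 15.7 tags.

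By these labels, chains were sorted into kinds, a grouping chosen after the labels had been seen. Ribosomal RNA labels or genes marked 5 chains with 158 peaks, and satellites marked 7 other chains with 150 peaks. Chemosensory receptors were nearest genes of annotated peaks in another 14 chains with 153 peaks. A single annotated peak was enough to set the kind of a chain. Annotated were 120 of the 158, 92 of the 150 and 37 of the 153 peaks, so that the values by kind include many peaks without a label. A further 66 chains with 636 peaks had other labels, and 38 chains with 291 peaks had no annotated peak. The median background was 32.5 tags (29.5 to 33.9) in ribosomal RNA chains and 69.0 tags (60.3 to 77.9) in satellite chains. It was 6.20 tags (5.58 to 7.66) in chains at chemosensory receptors and 3.31 tags (3.02 to 3.72) in chains without an annotated peak. The median fold was 4.06, 2.86, 4.71 and 5.80 in the same order. The chains with other labels, which held the most members, had a background of 6.10 tags (5.58 to 6.82) and a fold of 4.84, close to those at chemosensory receptors. As the annotation used covers strong peaks, chains without an annotated peak hold weak peaks by definition. Their low background may follow in part from that, while their median fold was the highest of these kinds. With the ribosomal RNA and satellite chains left out, which was decided with the values known, the remaining 1080 members still had a lower fold than the peaks in shorter chains, 5.15 (4.84 to 5.34) against 6.34, over a background of 5.08 tags (4.75 to 5.50). Their median length was 274 bp (265 to 281), an interval that overlapped that of the other peaks. By kind, the median length was 287.5 bp (277 to 299) in chains with other labels and 270 bp (256 to 298) at chemosensory receptors. Chains without an annotated peak had 248 bp (232 to 259). As these kinds separate chains with strong peaks from chains without them, they cannot show where the greater length lay.

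Ribosomal RNA chains held some of the longest and densest series. The chain on chromosome 14 from 46256217 to 46688239 of rn6 had 80 peaks within 432 kb, with a median fold of 3.77 and a median background of 32.6 tags. Of its 63 annotated peaks, 43 were nearest to LOC310926, 9 to Rn5-8s, 7 to LOC257642 (named for a protein that binds the ribosomal RNA promoter) and 2 to Rn28s. Its highest peak, from 46643208 to 46647636, was annotated to the promoter of an Rn5-8s copy and had 344 tags over a background of 81.1 tags, a fold of 4.24 (95% Poisson interval 3.80 to 4.71). Its largest fold, 9.68 (5.53 to 15.7), was that of its first peak, from 46256217 to 46256416, with 16 tags over 1.65. The most enriched peak of this chain was thus one with few tags, though an annotated member near LOC310926 had a similar fold of 9.45. The highest peak of the chain lay over a high background.

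A denser ribosomal RNA chain lay on chromosome 1 from 11903594 to 11975082, with 34 peaks in 71.5 kb that covered 49.6% of the span. Its highest peak, from 11971463 to 11972959, had 300 tags over 96.5 and a fold of 3.11 (2.77 to 3.48), with an LSU-rRNA label. Its largest fold, 7.92 (6.97 to 8.97), was at a peak of 4083 bp from 11908999 to 11913081, with a CpG label in an intron of LOC310926. The longest member of all, 8366 bp from 11960559 to 11968924, lay in the same chain and had 232 tags and a fold of 5.87. The next longest measured 6494 bp (chromosome 5, 91124022 to 91130515, fold 4.51) and 4601 bp (chromosome 14, 46679299 to 46683899, fold 4.93). The nearest gene of all 3 was Rn5-8s.

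On chromosome 6, a chain of 20 peaks from 30407046 to 30684411 and a chain of 18 peaks from 31046666 to 31071020 had Rn5-8s or LOC257642 as the nearest gene of every annotated peak. The chain of 18 spanned 24.4 kb, or 73.9 peaks per 100 kb. Its largest fold, 9.79 (8.37 to 11.4), was at an LSU-rRNA label from 31047205 to 31047660 with 168 tags, and its highest peak, from 31049804 to 31050198, had 222 tags and a fold of 4.05. In the chain of 20, an LSU-rRNA peak from 30634836 to 30635138 had the largest fold, 9.72 (8.11 to 11.6) from 128 tags, and the peak from 30630405 to 30632392 was the highest, with 244 tags and a fold of 5.36 (4.71 to 6.08). These folds of 9.79 and 9.72 lay at backgrounds of 17.2 and 13.2 tags, and among all peaks from 10 to 30 tags the highest fold was 10.6 in chains and 10.3 outside.

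Most satellite chains had high backgrounds. The exception was a chain of 8 peaks on chromosome 12 from 17310097 to 17614723 near Adap1, with 1 annotated peak, whose median background of 1.65 tags equalled the lowest of any chain and whose median fold of 8.71 was the highest of all chains. The chain on chromosome 1 from 180406889 to 181346615 had 80 peaks over 939.7 kb, and all of its 48 annotated peaks were satellites, with Rras2 as the nearest gene. Its median pileup was 184 tags over 77.7, a fold of 2.66. Its highest peak, an SATI_RN from 180645736 to 180646428, had 428 tags over 132.1 and a fold of 3.24 (2.94 to 3.56), and its largest fold, 6.99 (4.57 to 10.2), was that of a peak from 180443937 to 180444382 with 26 tags over 3.72. This chain also held the member of the smallest fold, 1.54 (1.27 to 1.84) from 118 tags, from 180738958 to 180739489. On chromosome 13 from 33475882 to 33820425, a chain of 30 peaks near Tsn had a median fold of 2.66 over 69.8 tags. Its peak from 33502416 to 33505327 had 438 tags, the largest pileup of any member, and a fold of 3.34 (3.03 to 3.67), while the largest fold was 6.66 (5.86 to 7.54), from 33592130 to 33592359. A chain of 6 SATI_RN peaks on chromosome 12 from 3340762 to 3357460, described after its values were seen, had the highest median background of all chains, 109.1 tags, with pileups of 202 to 382 tags and folds of 2.29 to 3.24.

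Chemosensory receptor genes, which detect odours, pheromones and tastes, were nearest to 44 chained peaks in 15 chains, 1 of which was counted above as a satellite chain, and to 74 annotated peaks outside chains. Of 393 annotated chained peaks 14 were near olfactory receptor genes and 29 near Vom2r genes, against 57 and 15 of 1331 outside chains. The 14 members near olfactory receptor (Olr) genes had a median fold of 8.12, with a range from 5.83 to 14.5, over a median background of 5.06 tags. The 29 members near Vom2r genes, which encode vomeronasal receptors, had a median fold of 3.52, with a range from 2.38 to 9.03, over 42.4 tags, and the single Vom1r member, at Vom1r13, had a fold of 7.16. Of the 29, 13 came from 1 chain at Vom2r9 and 7 from the satellite chain at Vom2r56. The other 9, from 6 chains, had a median fold of 5.86 over 9.71 tags, so that the low value for Vom2r rested largely on 2 chains. Taar, Tas1r and Tas2r genes were nearest to 0 annotated peaks. Among the Olr members, a peak with an RNHAL1 label on chromosome 20 from 462141 to 462671, nearest to Olr1678, had 24 tags over the lowest background and a fold of 14.5 (9.30 to 21.6). On the same chromosome, a RatSatRep2 peak from 1795735 to 1795989 nearest to Olr1738 had 38 tags and a fold of 13.1 (9.29 to 18.0). Both were described after their values were seen.

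Large Vom2r chains lay on chromosome 1. The chain from 55635488 to 55775119 had 28 peaks in 139.6 kb, and the nearest gene of its 13 annotated peaks was Vom2r9. Its median fold of 2.45 over 47.5 tags was the lowest median fold of any chain, although 11 of the 13 peaks carried no repeat label. The highest peak of this chain, from 55650765 to 55651731, had 176 tags and a fold of 3.06 (2.62 to 3.55), and the largest fold was 4.99 (3.81 to 6.42), from 55753694 to 55754346. Another member, from 55647214 to 55647498, had one of the smallest folds of all, 1.59 (1.29 to 1.93). The chain of 26 peaks from 53929366 to 54640059 was placed near Vom2r7 by its 2 annotated peaks. It was looser, with 3.66 peaks per 100 kb, a median background of 6.94 tags and a median fold of 3.62. Its folds ranged from 2.14 to 9.03, the latter at a RatSatRep2 peak from 54639505 to 54640059, and its highest pileup was 60 tags, from 54420836 to 54421098, with a fold of 2.34.

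A list of 31 name stems stood for other gene families with neighbouring copies, and families outside it were not counted. Of its stems besides ribosomal RNA genes, only RT1, Pcdh and Zfp were nearest to annotated chained peaks, 9 of 393 in 5 chains with a median fold of 7.82, and stems of the list matched 50 of 1331 annotated peaks outside chains. The matches in chains included Pcdh9, Zfp36l2 and Zfp800, and a shared stem does not show that a gene has neighbouring copies. The chain in the major histocompatibility complex on chromosome 20, from 4516930 to 4943326, had 25 peaks in 426.4 kb, with a median fold of 4.84 over 5.38 tags, and 4 of them were called against the lowest background. Its annotated peak, from 4773409 to 4773641, lay in intron 3 of 6 of RT1-CE2, a class I gene, with 50 tags and a fold of 5.15 (3.82 to 6.79). Its highest peak, from 4688374 to 4688762, had 52 tags and a fold of 3.45, and its largest fold was 10.6 (6.29 to 16.8), from 4516930 to 4517176, the first peak of the chain. A separate chain of 8 peaks held the peak in exon 3 of 8 of RT1-A2, whose window is shown above, from 5375479 to 5376104, with 36 tags over 4 and a fold of 9 (6.30 to 12.5).

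**Figure D5:**
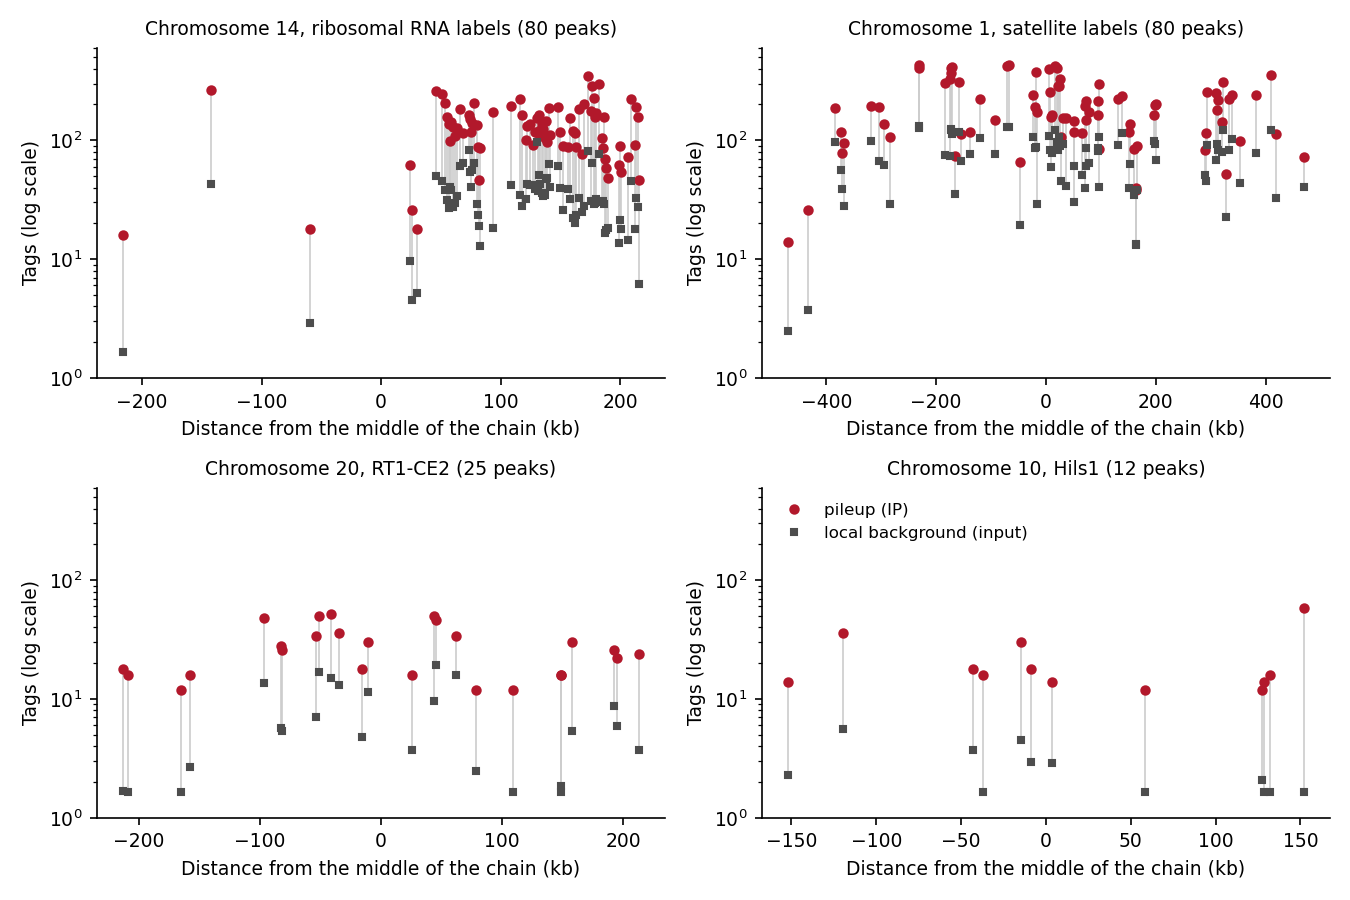
Pileup of the IP (red circles) and local background of the input (grey squares) in tags on a log axis for each peak of 4 chains, by distance in kb from the middle of the chain. At most peaks of the ribosomal RNA and satellite chains both values are high together. In the chains at RT1-CE2 and Hils1 the background stays below 20 tags.

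Of the 35 genes in the list of spermatid and sperm genes, 1, Hils1, was the nearest gene of an annotated chained peak (1 of 393). Outside chains the list accounted for 1 of 1331 annotated peaks. Genes outside the list were not counted here, whatever their role in sperm. The Hils1 peak, on chromosome 10 from 82775783 to 82776373, was 591 bp long and lay in exon 1 of 1. It had 58 tags over a background of 1.65 and a fold of 35.1 (26.6 to 45.3), the largest but 1 of all members. It was the last peak of a chain of 12 that began at 82471706. The other 11 peaks had 12 to 36 tags and folds of 4.84 to 9.68, so that none came within the interval of the Hils1 peak. Among the 11, a peak nearest to Xylt2 was also annotated, with 36 tags over 5.58 and a fold of 6.45 (4.52 to 8.93). This chain thus combined 11 peaks of lower fold with 1 peak of high fold at a gene.

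The member with the largest fold had a CpG label and was 1179 bp long (chromosome 4, 157607087 to 157608265), intergenic and nearest to Nop2, a nucleolar protein gene. It had 178 tags over 1.65 and a fold of 107.7 (92.4 to 124.7), close to the largest fold outside chains, 110.1. After it and Hils1 came an RNHAL1 peak on chromosome 1 from 53702782 to 53703119 nearest to Afdn, with a fold of 15.7 (10.3 to 23.0). Then followed a peak without a repeat label on chromosome 12 from 9544890 to 9545659 nearest to Pdx1, with 140 tags over 9.47 and a fold of 14.8 (12.4 to 17.4). A fold of 14.5 was shared by the Olr1678 peak given above, a peak nearest to Pramef27 and an L1_Rat1 peak on chromosome 4 from 54899229 to 54899500 in an intron, nearest to Mir592 (9.79 to 20.7). At the other end, besides the members on chromosome 1 already given, a peak on chromosome 14 from 46602530 to 46602893 in the ribosomal RNA chain had 154 tags over 97.5 and a fold of 1.58 (1.34 to 1.85). The folds of members thus spanned from 1.54 to 107.7.

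Some chains had neither ribosomal RNA nor satellite labels among their annotated peaks but a raised background. Their other peaks had no label in the part of the annotation used. On chromosome 19, the chain of 35 peaks (7 annotated) from 27737680 to 28135133 near LOC363337 had a median fold of 3.71 over 11.9 tags. The chain of 21 peaks (5 annotated) from 26061793 to 26622246 near Man2b1, a lysosomal mannosidase gene, had 4.84 over 11.6 tags. The highest peak of the former had 96 tags and a fold of 4.79 (3.88 to 5.85), from 28127235 to 28128212, and its largest fold was 10.2 (6.41 to 15.5), from 27737680 to 27737886. In the latter the highest peak had 114 tags and a fold of 3.73, from 26461750 to 26462304, and the largest fold was 10.9 (6.45 to 17.2), from 26161575 to 26161797. In both, the peak of the largest fold had at most 22 tags. A chain on chromosome 19 from 5819402 to 5837122, near the cadherin gene Cdh8, was among the densest. It had 10 peaks (5 annotated) in 17.7 kb and a median background of 25.5 tags. Its highest peak had 258 tags and a fold of 4.01, from 5821392 to 5822777, and its largest fold was 6.38 at a CpG label, from 5834871 to 5835424.

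The densest chain of all lay on chromosome 13 from 89437982 to 89446393, near Cfap126, a gene of cilia and flagella, with 8 peaks in 8.41 kb, or 95.1 per 100 kb. Its peak from 89440120 to 89441977, with a CpG label, had both its largest pileup, 92 tags, and its largest fold, 6.54 (5.27 to 8.02). On chromosome 9 from 40514608 to 40529337, near the phosphatase gene Ptpn18, 7 peaks lay in 14.7 kb with a median fold of 4.84 over 10.8 tags. The highest and most enriched of them, from 40518062 to 40518313, was in a simple repeat of the unit CTCCCTGT and had 122 tags and a fold of 9.52 (7.91 to 11.4). Both chains lacked peaks at the lowest background.

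The regions that the study tested by ChIP-PCR were looked up as well. Of 14 autosomal intervals, all 14 overlapped a peak of the list and 0 were in chains of 6 or more. They lay in chains of 1 to 4 peaks, so that the clustered peaks were not sampled by those assays. Over all autosomal peaks the share in chains of 6 or more was 13.1%, so that 0 of 14 says little about chained peaks.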

How the data were processed

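The 2 IP and 2 input samples were merged by the authors, who aligned reads to rn6, and the list header names MACS 2.0.9 with broad calling at a p-value cutoff of 5e-05. The study's text names another version and another cutoff, and the header was followed. The deposited pileup is a signal in IP tags at the summit. The fold enrichment, also deposited, is a ratio, this signal over the background of the scaled input, and the deposited -log10 p-value compares both. Kept tags numbered 16203958 in the IP and 78371120 in the input, at most 2 and 3 per position. The list has 0 columns of single samples. All pileups were even (0 odd), so Poisson intervals, which hold the background fixed and take tags as independent, may be too narrow, and intervals cover counting error only.

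Peaks were chained by exact chromosome name, and the background was computed as pileup over fold. Medians have 95% binomial order-statistic intervals and shares Wilson intervals, and both take peaks as independent. No test was run, since peaks are not replicates. Chaining and intervals were tested on simulated data. The members, lists and alternatives were chosen with earlier results of these data known. Described were the 10 chains with the most peaks (on ties the shorter span first), the 5 with most peaks per 100 kb, the highest and most enriched peak of each, the 5 largest folds (with ties for the last) and 3 smallest, the 3 longest members, and lists of chemosensory, other tandem and spermatid genes and of repeat labels. Gene and repeat labels are those of the study's annotation (rn6), and promoter windows are from RefSeq (GRCr8). Kinds of chains, classes of background and of spacing, chain ends and further members were chosen after the values were seen. Alternatives changed the gap, the smallest chain, peak filters, joining and chromosomes. An rn6 genome sequence and gene models beyond the study's annotation were not used here. Python 3.11.15, numpy 2.4.6, pandas 2.3.3, scipy 1.17.1 and matplotlib 3.10.9 were used.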

Additional observations from a re-analysis of the deposited data

How the results depend on the processing

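Of the results, 6 were computed again under 13 other settings, of which 2 were added after the data had been seen: leaving out the chains with ribosomal RNA or satellite labels, and leaving out both chains that tie for the most peaks. In the given order, the values below are the share of autosomal peaks in chains, the number of chains, and the log2 ratios of chained to other peaks for fold, background, pileup and length, as far as they moved. The share counted as moved when it left its reported 95% interval, and the number of chains when it differed by more than a factor of 1.5. A log2 ratio counted as moved when it left the 95% interval of the chained median, with the median of the other peaks held fixed. Results by chromosome, class, label or gene family were not computed again. The cause of the changes was not tested.

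With gaps up to 50 kb they were 7.46%, 70 chains, -0.74, 2.44, 1.63 and 0.30, and with gaps up to 200 kb 29.1%, 320 chains, -0.22, 0.46, 0.26 and 0.080. With chains of 5 or more they were 18.0%, 232 chains, -0.38, 0.76 and 0.49, and with chains of 10 or more 7.55%, 44 chains, -0.66, 2.19, 1.43 and 0.23. With a -log10 p-value of at least 10 they were 10.2%, 47 chains, -0.87, 2.73, 1.79 and 0.33, and with at least 5-fold enrichment 4.33%, 39 chains, -0.087, 0.12 and 0.00.

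After joining close peaks the share was 9.66%, with 0.91 for background and 0.49 for pileup. Without chromosome 1 it was 11.1%, with -0.36 for fold and 0.90 for background. Without the chain with the most peaks (on the tie, the one of shorter span) it was 12.5%. Without chains with ribosomal RNA or satellite labels it was 10.5%, with -0.30, 0.62, 0.38 and 0.059. Without both tied chains it was 11.8%, with 0.81 for background and 0.49 for pileup.

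The share moved in 11 settings, the number of chains in 6, fold in 8, background in 10, pileup in 9 and length in 5, and no sign turned. The numbers of chains within the factor ran from 97 (peaks joined) and 103 (without chromosome 1) to 139 (chromosome X added). Fold stayed lower and background higher in all 13, while the medians of pileup were equal under the filter on enrichment. The filters on enrichment and p-value select peaks by the compared values themselves, so they do not bear on the stability of fold, background and pileup. No paired analysis was possible because the list, by its header, was called on merged replicates, although a legend describes peaks shared by them.

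Limits: the list has 1 value per peak, so differences between animals are unknown, and the labelled cell stages could not be checked. Chains depend on the chosen gap and on which reads map uniquely in repeats. Fold and background share a term. The part of the annotation used here covers strong peaks only, and a nearest gene need not be bound or regulated.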
